A study of Mus musculus with 10 samples.

Results

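The genes described here build and run the machinery that copies DNA: the origin recognition complex, the licensing factors, the MCM helicase and its activators, the replicative polymerases with primase, the sliding clamp and its loader, the single-strand binding proteins, the lagging-strand enzymes and the enzymes that supply deoxynucleotides. They were chosen by name as a functional list of 43 genes, and 42 of them had at least 1 probe set on the array among 12393 genes with a name of their own. Gins2, a subunit of the helicase activator GINS, had no annotated probe set and was not analysed here. Each gene was read on its brightest probe set, taken as the one with the highest mean over all 10 arrays, and any further probe sets served as a check.

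The arrays came from mouse tissue at E10.5 that was microdissected to hold the hindbrain with pharyngeal arches 1 to 4. The 5 Fbln1-null embryos were homozygous for a gene trap insertion in Fbln1, the gene of the matrix glycoprotein fibulin-1, and the 5 wildtype embryos came from the same kind of cross between heterozygous carriers. Genotype was read from the yolk sac. Each array read the RNA of a whole mixed tissue, so fewer replicating cells and less RNA per cell cannot be told apart. The series as a whole asked what fibulin-1 does to signalling by FGF8, a growth factor of the arches.

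DNA replication starts at origins, where the origin recognition complex, Cdc6 and Cdt1 load the MCM ring in G1 phase. Cdc45 and GINS turn that ring into the active helicase at the start of S phase, polymerase alpha with primase lays down primers, polymerase epsilon copies the leading strand and polymerase delta the lagging strand. Most of these genes are transcribed under E2F factors as cells commit to S phase, and in the embryo at this stage the neural tube and the arch mesenchyme are proliferating tissues.

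The median log2 signal of an array was 3.203 to 3.29, and any pair of arrays correlated at 0.985 to 0.996, with 0 identical pairs. Fbln1 on its brighter probe set read 2.52 to 2.85 in null arrays and 3.83 to 5.11 in wildtype arrays, without overlap. That probe set was under the expression filter given next. Of the hindbrain markers 6 of 11 were over the expression filter, a log2 signal over 4 on at least 5 of the 10 arrays, while Egr2, Gbx2, Hoxb1, Hoxb2 and Pax7 were under it. Of the arch mesenchyme markers 8 of 14 were over it, with Dlx5, Msx1, Msx2, Hand2, Barx1 and Pitx1 under it. Litters are not given in the labels. The tests therefore measure the spread between these samples, and the number of arrays limits their precision.

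Of the replication genes, 40 were over the filter on their brightest probe set. On that probe set 1 of them, Pole4, passed the test below as lower in null tissue, while a dimmer Pole4 probe set did not. By limma with Benjamini-Hochberg adjustment over all 9801 probe sets kept, at an adjusted p of 0.05, 0.0204% of probe sets were lower and 0% were higher, and 0.0338% of genes were lower on their brightest probe set. Of the 40 genes, 31 had a lower mean in null than in wildtype tissue (77.5%), against 56.9% of the 5912 genes measured. The median log2 fold change, the difference between mean log2 signals, was -0.16 over the 40 genes and -0.04 over all genes measured, and without Pole4 it was -0.16 over the 39 others. At an unadjusted p of 0.05 stood 3 of the 40 (7.5%), all lower, against 12.8% of all genes (9% lower and 3.84% higher). The share in the lower direction lies near that of all genes and is no result about the replication genes. The signal of the 2 genotypes did not overlap for 1 of the 40, Pole4, against 2.03% of all genes that were lower without overlap. These counts describe a list that was chosen with earlier results of the same arrays known, and they carry no test of the list.

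**Figure D1:**
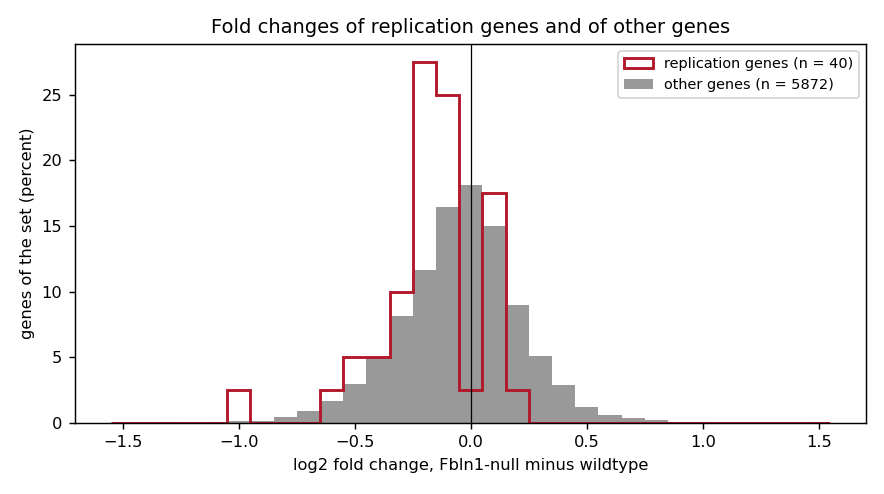
Log2 fold changes, Fbln1-null minus wildtype (horizontal axis), of 40 replication genes (red outline) and 5872 other genes (grey), as the percentage of each set (vertical axis) in bins of equal width. The replication genes lie mostly left of 0, with a median of -0.16, and their bin farthest to the left holds Pole4 at -0.98. The other genes reach farther left, to -1.44.

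Polymerase epsilon, the leading-strand enzyme, holds the 1 gene that passed the test. Its 4 subunits all had lower means in null tissue, with a median log2 fold change of -0.33. Pole4, a small histone-fold subunit that pairs with Pole3 and helps the polymerase handle DNA and histones, had log2 signals of 6.24, 6.58, 6.44, 6.48 and 6.51 in null replicates 3, 4, 5, 7 and 8, against 7.41, 7.34, 7.46, 7.67 and 7.28 in wildtype replicates 1 to 5. The highest null array stood below the lowest wildtype array. The means were 6.45 ± 0.13 in null and 7.43 ± 0.15 in wildtype tissue (SD, n = 5 each), and the log2 fold change was -0.98 (SE 0.12, 95% interval -1.24 to -0.73, 1.98-fold, limma adjusted p = 0.0196).

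The dimmer Pole4 probe set did not share that difference. It read 4.95, 4.61, 4.73, 4.65 and 4.90 in null arrays, against 4.73, 4.83, 4.55, 4.65 and 4.73 in wildtype arrays, and the 2 ranges overlapped. Its log2 fold change was 0.07 (SE 0.12, 95% interval -0.18 to 0.33), and the difference between both probe sets of 1.06 was larger than in any other assignment of 5 and 5 arrays (two-sided exact permutation p = 0.00794, the smallest possible, adjusted p = 0.222 over the 28 probe set pairs tested). All 10 of these values lie within 1 log2 unit of the filter. With the mean of both probe sets the Pole4 log2 fold change was -0.45 (limma adjusted p = 0.104).

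Leaving out single arrays ended the Pole4 call in 6 of 10 fits. The adjusted p was 0.0614 to 0.0841 without null replicate 5, 7 or 8 or without wildtype replicate 1, 2 or 4, and 0.0382 to 0.0496 without any of the other 4, with log2 fold changes of -1.02 to -0.92 in all 10 fits. The log2 difference between the 3' and 5' probe sets of the beta-actin control, a sign of RNA quality, was 2.19 to 2.85 in null arrays and 1.9997 to 2.38 in wildtype arrays. With it in the fit the log2 fold change of Pole4 was -0.90 (limma adjusted p = 0.0790). Embryo sex, read from a Y-linked gene, set wildtype replicate 4 alone apart, so a fit with sex is the fit without that array and no separate check.

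The other subunits of the complex did not pass. Pole3, the histone-fold partner of Pole4, read 6.10, 5.996, 6.36, 6.67 and 6.37 in null arrays, against 6.26, 6.40, 6.50, 7.12 and 6.89 in wildtype arrays. These ranges overlapped, and the log2 fold change was -0.33 (SE 0.19, limma adjusted p = 0.501), with 0.15 (SE 0.16) on a second probe set. Pole2, the regulatory subunit that ties the polymerase to the helicase, had -0.33 (SE 0.235, limma adjusted p = 0.612), and 1 null array at 5.53 lay under the others at 6.37 to 6.93. Pole, the catalytic subunit, read 6.72 to 7.30 in null and 6.90 to 7.23 in wildtype arrays, with a log2 fold change of -0.05 (95% interval -0.34 to 0.24).

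**Figure D2:**
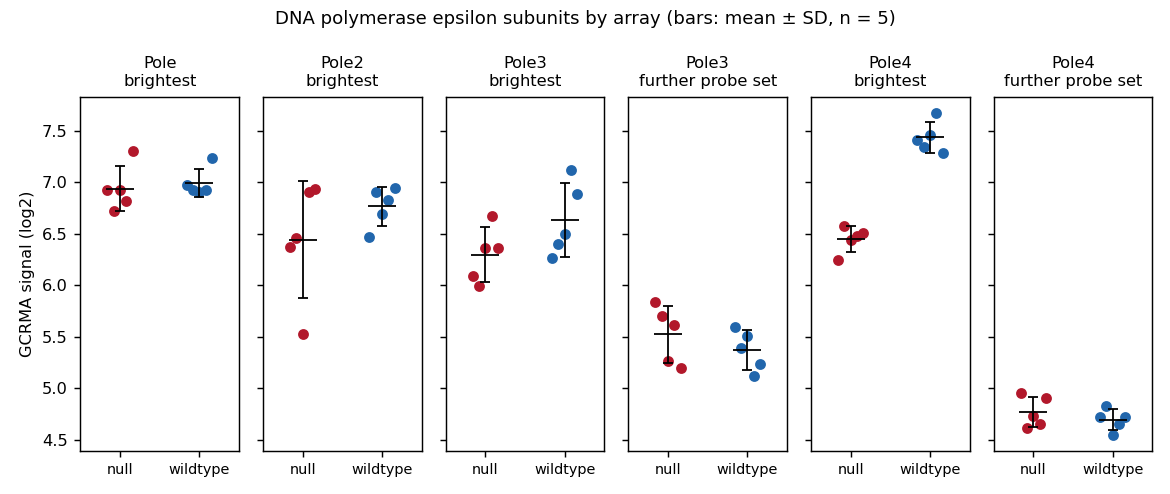
GCRMA signal (log2, vertical axis) of the polymerase epsilon subunits in each array, null in red and wildtype in blue, with mean ± SD (n = 5). Among these probe sets only the brightest of Pole4 separates the genotypes, at 6.24 to 6.58 in null and 7.28 to 7.67 in wildtype arrays; levels are not comparable between panels, since each probe set has its own brightness.

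The promoters of the subunits are shown because the brightest Pole4 probe set was lower in null tissue and the partners of Pole4 are the nearest comparison. RefSeq windows of 300 bases on GRCm38.p6, from 250 bases before to 50 after the annotated start, were searched on both strands for the E2F-type words TTTGGCGC, TTTCGCGC, TTTCCCGC and TTTGCCGC and for CCAAT. The capitals mark the E2F-type matches, and CCAAT had 0 matches in the windows printed. Pole4 had 1 E2F-type match that begins 34 bases before the start of the window printed and 43 bases before a second annotated start. Pole2 had 1 within the first transcribed bases, Pole3 had 0 in its window, and Pole had no window in the table.
Pole4, chr6:82652825-82653124, minus strand: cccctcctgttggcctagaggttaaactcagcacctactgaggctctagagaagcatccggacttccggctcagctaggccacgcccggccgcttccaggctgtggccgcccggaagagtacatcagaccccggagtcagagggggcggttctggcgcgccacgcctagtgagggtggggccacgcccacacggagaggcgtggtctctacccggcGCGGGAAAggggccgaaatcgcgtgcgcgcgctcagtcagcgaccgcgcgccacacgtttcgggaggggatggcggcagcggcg
Pole2, chr12:69228141-69228440, minus strand: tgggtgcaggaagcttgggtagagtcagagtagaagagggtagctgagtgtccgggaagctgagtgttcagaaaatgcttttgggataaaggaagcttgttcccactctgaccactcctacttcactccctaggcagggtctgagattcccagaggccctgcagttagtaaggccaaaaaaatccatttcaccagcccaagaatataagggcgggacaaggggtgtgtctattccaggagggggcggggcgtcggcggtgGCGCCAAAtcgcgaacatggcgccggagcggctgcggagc
Pole3, chr4:62524965-62525264, minus strand: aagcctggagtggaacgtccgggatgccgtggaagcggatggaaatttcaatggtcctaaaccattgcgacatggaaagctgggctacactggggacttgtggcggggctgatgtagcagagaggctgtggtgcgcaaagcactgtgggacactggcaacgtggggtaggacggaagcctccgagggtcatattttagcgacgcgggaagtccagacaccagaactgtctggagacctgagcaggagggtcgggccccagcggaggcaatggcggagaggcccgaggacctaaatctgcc

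An E2F-type word was found in the windows of 13 of the 35 replication genes with a window (37.1%), against 2.61% of 27018 genes in the table. CCAAT was found in 21 of the 35 (60.0%), against 41.1% of all genes. The matches differ in strand and in place, as the stretches around the first match in 4 MCM genes and in Orc1, Cdc6 and Rfc3 show, with 10 bases on either side and every E2F-type letter in capitals. Matches on opposite strands overlap in Mcm5 and Mcm6.
Orc1, chr4:108579417-108579444, plus strand: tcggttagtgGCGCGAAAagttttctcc
Cdc6, chr11:98908003-98908030, plus strand: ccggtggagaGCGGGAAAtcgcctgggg
Mcm3, chr1:20820276-20820303, minus strand: aacttccgtgGCGGGAAAacttgggaag
Mcm5, chr8:75109346-75109373, plus strand: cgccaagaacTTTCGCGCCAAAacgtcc
Mcm6, chr1:128359798-128359825, minus strand: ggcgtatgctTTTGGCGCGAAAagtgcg
Mcm7, chr5:138172031-138172058, minus strand: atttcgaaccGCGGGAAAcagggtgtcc
Rfc3, chr5:151651201-151651228, minus strand: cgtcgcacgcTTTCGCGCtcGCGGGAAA

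Of the 13 genes with an E2F-type match, 10 had lower means in null tissue and the median log2 fold change was -0.24. Of the 20 measured genes with a window and no such match, 15 had lower means and the median was -0.15. A match is a run of letters in the window and not a shown binding site, and the difference between these medians was not tested.

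The origin recognition complex, which marks origins, had means in both directions on the brightest probe sets. Of the 5 listed genes 3 had lower and 2 higher means, with log2 fold changes from -0.12 for Orc2 to 0.13 for Orc1, and 0 passed the limma test. Orc6, a small subunit, had -0.11 (SE 0.14, limma adjusted p = 0.802), the smallest p of the group. Orc4 had 0.10, 0.16 and 0.18 on 3 probe sets, and Orc5 -0.07 on its 1 probe set. Orc3, a subunit outside the list of 43 and named after its values were seen, lay beyond that range at 0.36 (SE 0.15, limma adjusted p = 0.369), with 0.29 and -0.24 on its further probe sets.

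A second Orc2 probe set, singled out after its values were seen, read otherwise than the brightest one. It had 6.44, 6.22, 6.59, 6.22 and 6.202 in null arrays, against 6.91, 6.91, 6.83, 7.04 and 7.26 in wildtype arrays, with no overlap (against 1.95% of probe sets lower without overlap). Its log2 fold change was -0.66 (SE 0.13, limma adjusted p = 0.0781, a level under 0.1 that 0.469% of probe sets reached), while the brightest probe set had -0.12 (SE 0.18) and the dimmest, at 4.03 to 4.95 in all arrays, had -0.19 (SE 0.16). The difference between the second and the brightest had a two-sided exact permutation p of 0.0159 (adjusted p = 0.222 over the 28 pairs).

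The licensing genes had lower means without passing. Cdc6, the loader ATPase, read 5.12, 5.204, 5.35, 4.86 and 5.22 in null arrays, against 5.09, 5.33, 5.45, 5.69 and 5.51 in wildtype arrays, with a log2 difference of -0.26 (SE 0.14, limma adjusted p = 0.476). Wildtype replicates 1 and 2 lay inside the null range and the other wildtype arrays above it. Gmnn, whose product geminin inhibits Cdt1, had -0.20 (SE 0.19), and Cdt1 itself had -0.08 (SE 0.275) with wildtype arrays from 6.32 to 7.95.

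All 6 MCM genes, which encode the subunits of the replicative helicase ring, had lower means in null tissue, and 0 of them passed the limma test. The log2 fold changes were -0.38 for Mcm3, -0.28 for Mcm5, -0.25 for Mcm7, -0.24 for Mcm6, -0.19 for Mcm4 and -0.14 for Mcm2, with a median of -0.24. Mcm6 had the smallest p of the ring, with signals of 8.69, 8.59, 8.58, 8.39 and 8.75 in null arrays, against 8.81, 8.88, 8.69, 8.87 and 8.96 in wildtype arrays. Null replicates 3 and 8 reached or passed the lowest wildtype array, and the log2 fold change was -0.24 (SE 0.11, 95% interval -0.49 to 0.00, limma adjusted p = 0.411). Mcm3 had an SE of 0.19 and a limma adjusted p of 0.451, and Mcm7 an SE of 0.13 and a limma adjusted p of 0.480.

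The ring was read on further probe sets that mostly gave the same direction. Mcm7 had -0.25, -0.14 and -0.18 on 3 more, Mcm6 -0.24 on a second and Mcm4 -0.14 on a second. Mcm3 had -0.27 on 2 more and 0.01 on another. Mcm2 had -0.002 on its second probe set. The brightest probe sets of Mcm2, Mcm3, Mcm4 and Mcm7 are of kinds that may also bind related transcripts. The same limit holds for the brightest probe sets of Pole3, Pold1, Rfc4, Fen1 and Rrm2 in the other roles.

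The helicase activators differed among themselves. Cdc45, which completes the active helicase, read 5.995, 5.85, 5.997, 5.74 and 6.70 in null arrays, against 5.89, 6.54, 6.53, 6.88 and 6.69 in wildtype arrays. The ranges overlapped through null replicate 8, which exceeded 4 of the 5 wildtype arrays, and wildtype replicate 1, which lay among the other null arrays. The log2 fold change was -0.45 (SE 0.21, 95% interval -0.91 to 0.01, limma adjusted p = 0.415), and it was -0.61 without null replicate 8. Gins1 had -0.15 (SE 0.18) and Gins4 0.08 (SE 0.13), both subunits of the GINS complex.

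Polymerase alpha and primase, which start each new strand, had lower means for all 4 genes and 0 passed the limma test. Prim2, the large primase subunit, read 6.54, 7.21, 6.56, 7.41 and 6.91 in null arrays, against 7.46, 7.45, 7.31, 7.01 and 7.37 in wildtype arrays. Null replicates 4 and 7 lay inside the wildtype range, and the log2 fold change was -0.40 (SE 0.18, limma adjusted p = 0.397), with -0.09 (SE 0.18) on a second probe set. Pola2, a regulatory subunit, had -0.50 (SE 0.30, limma adjusted p = 0.537) at signals of 3.77 to 5.16 in null and 4.40 to 5.79 in wildtype arrays, close to the filter. Pola1, the catalytic subunit, had -0.10 and Prim1, the catalytic primase subunit, had -0.09, with 0.11 on a second Prim1 probe set.

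Of the 2 polymerase delta genes in the list, 1 was over the filter. Pold1, the catalytic subunit, had a log2 difference of 0.06 (SE 0.32, limma adjusted p = 0.965), whose sign depended on the settings of the fit. Its arrays spread from 6.86 to 7.90 in null and from 6.38 to 7.98 in wildtype tissue. Pold2, a regulatory subunit, was under the filter at means of 3.65 in null and 3.78 in wildtype tissue. Outside the list of 43, and named after their values were seen, the accessory subunit gene Pold3 had -0.20 (SE 0.16, limma adjusted p = 0.664) with -0.06 on a second probe set, and Pold4 was under the filter.

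The clamp and loader genes had means in both directions, 3 lower and 3 higher, with log2 fold changes from -0.22 to 0.21, and 0 of 6 passed the limma test. Pcna, the sliding clamp that holds polymerases on DNA, read 11.98, 12.05, 12.17, 12.29 and 12.36 in null arrays, against 12.08, 12.14, 12.18, 12.17 and 12.05 in wildtype arrays. Its log2 fold change was 0.05 (95% interval -0.20 to 0.30). Of the 5 clamp loader genes 3 had lower and 2 higher means. Rfc1, the large loader subunit, had 0.21 (SE 0.12, limma adjusted p = 0.520), the highest value of the 40 genes, with -0.002 and 0.05 on 2 further probe sets. Rfc5 had -0.22 (SE 0.13), Rfc3 -0.20 (SE 0.20), Rfc2 -0.13 (SE 0.13) and Rfc4 0.10 (SE 0.14). The second Rfc4 probe set had -0.30 (SE 0.16), and its difference from the brightest had a two-sided exact permutation p of 0.0476 (adjusted p = 0.333 over the 28 pairs).

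The single-strand binding complex RPA, which coats the unwound strands, had lower means for all 3 genes. Rpa2, its middle subunit, read 6.14, 6.06, 6.67, 6.71 and 7.18 in null arrays, against 6.55, 6.91, 6.99, 7.88 and 7.36 in wildtype arrays, and the ranges overlapped. The log2 fold change was -0.58 (SE 0.26, 95% interval -1.15 to -0.01, limma adjusted p = 0.390). The second Rpa2 probe set gave a similar value with a smaller spread: 6.39, 5.96, 6.23, 6.44 and 6.47 in null arrays, against 6.40, 6.92, 6.84, 7.01 and 6.997 in wildtype arrays. There wildtype replicate 1 was the 1 wildtype array inside the null range, and the log2 fold change was -0.53 (SE 0.15, limma adjusted p = 0.199). Rpa1, the large subunit, had -0.23 (SE 0.15) with -0.01 on a second probe set, and Rpa3, the small one, had -0.17 (SE 0.14).

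The lagging-strand and nucleotide genes showed no shared direction. Fen1, the flap endonuclease that trims primers, had a log2 difference of -0.16 (SE 0.12, limma adjusted p = 0.612) and -0.21 (SE 0.11) on a second probe set, and Lig1, the ligase that seals the nicks, had 0.11 (SE 0.22). Rrm1, the large subunit of ribonucleotide reductase, had -0.16 (SE 0.14, limma adjusted p = 0.708) and 0.08 on a second probe set. Tk1, thymidine kinase, had -0.17 (SE 0.24). Tyms, thymidylate synthase, was under the filter on all 3 of its probe sets, with means of 2.999 in null and 2.84 in wildtype tissue on the brightest.

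Rrm2, the small reductase subunit, was another gene whose probe sets parted. The brightest read 12.03 to 12.27 in null and 12.00 to 12.35 in wildtype arrays, a log2 fold change of 0.02 (95% interval -0.23 to 0.26). The second read 9.84, 9.16, 9.23, 8.87 and 8.94 in null arrays, against 8.55, 8.53, 9.08, 8.27 and 8.34 in wildtype arrays, with wildtype replicate 3 alone inside the null range. Its log2 fold change was 0.65 (SE 0.20, limma adjusted p = 0.259), and the difference from the brightest had a two-sided exact permutation p of 0.0238 (adjusted p = 0.222 over the 28 pairs).

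**Figure D3:**
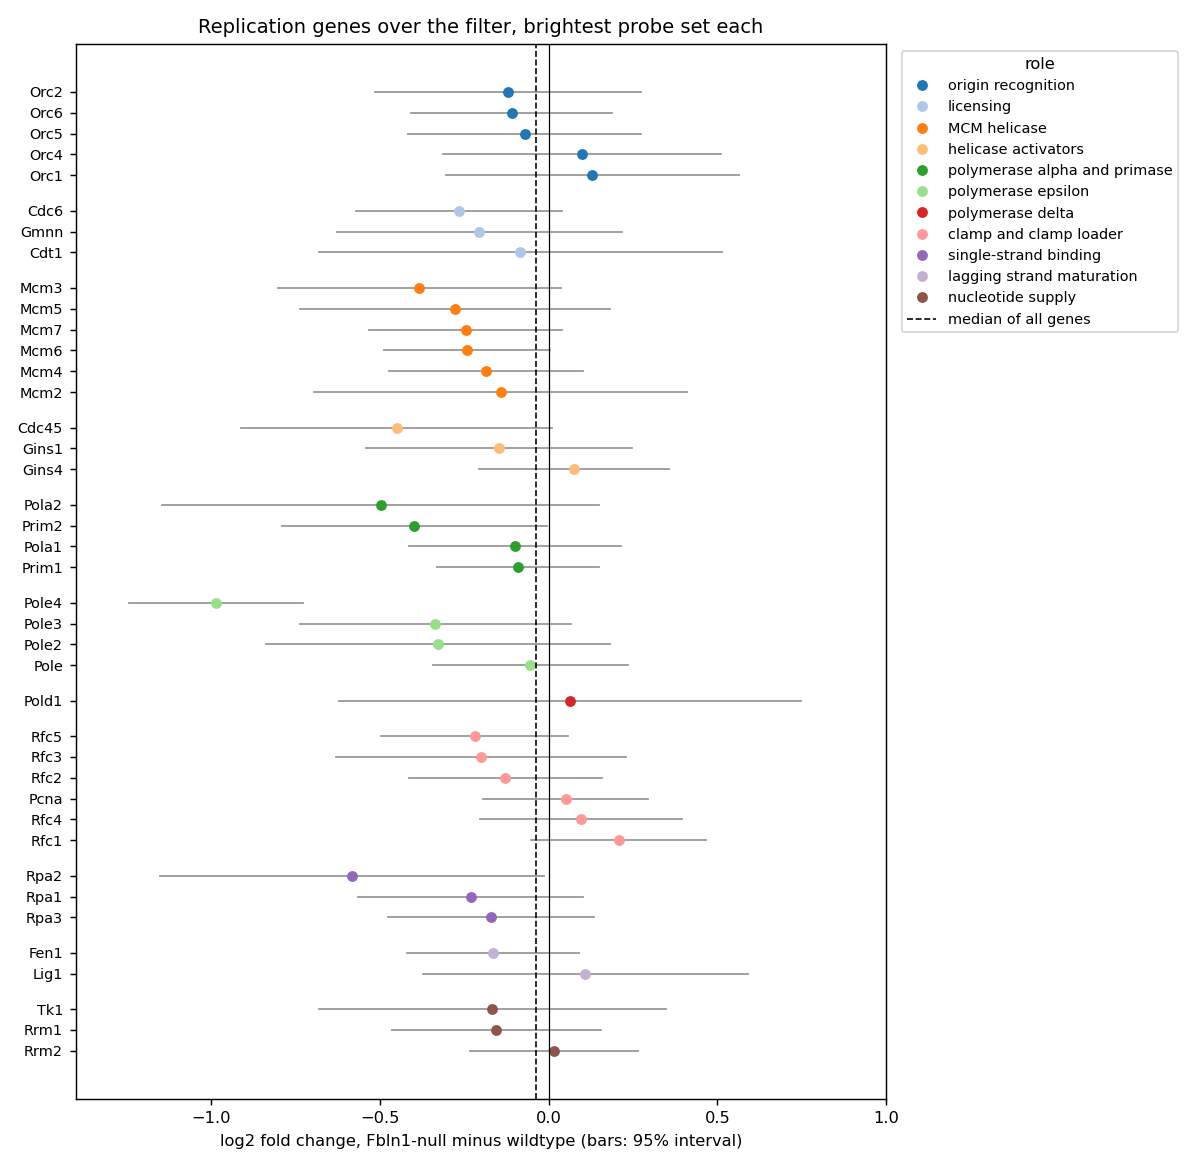
Log2 fold change, Fbln1-null minus wildtype (horizontal axis), of each replication gene over the filter (vertical axis, grouped by role) on its brightest probe set, with 95% intervals from limma (n = 5 each); the dashed line is the median of all genes, -0.04. Pole4 at -0.98 stands alone on the left, and all MCM, RPA, licensing and polymerase alpha genes lie left of 0 with most intervals reaching across it.

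Over all roles, 28 further probe sets on 20 genes passed the filter. Of these, 20 shared the sign of the brightest probe set and 8 did not, and 3 had an unadjusted limma p under 0.05, against 12.4% of all probe sets kept. By the exact permutation test 4 of the 28 pairs had an unadjusted p under 0.05, those of Pole4, Orc2, Rrm2 and Rfc4, and 0 passed after Benjamini-Hochberg adjustment over the pairs.

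**Figure D4:**
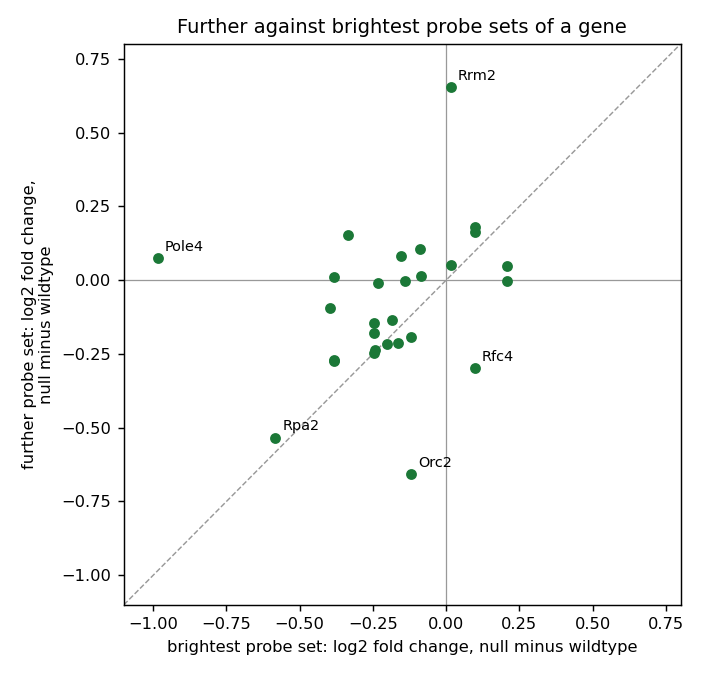
Log2 fold change, null minus wildtype, of 28 further probe sets (vertical axis) against the brightest probe set of the same gene (horizontal axis), 1 point per further probe set; the dashed line marks equal values. Pole4 lies far left at a further value of 0.07 and Orc2 far down at -0.66, while Rpa2 lies near the line.

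Array by array, the levels of the replication genes overlapped between the genotypes. For each array the deviation of every gene from its own mean over the 10 arrays was taken, and the median over the 40 genes was -0.14, -0.15, -0.04, -0.12 and 0.10 in null replicates 3, 4, 5, 7 and 8, against -0.13, 0.05, -0.03, 0.16 and 0.21 in wildtype replicates 1 to 5. Null replicate 8 resembled wildtype arrays and wildtype replicate 1 resembled null arrays. The number of genes above their own mean was 10, 7, 16, 15 and 28 of 40 in the null arrays, against 14, 24, 18, 30 and 32 of 40 in the wildtype arrays. The same median over all genes measured was -0.04 to 0.02 in null and -0.01 to 0.07 in wildtype arrays.

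**Figure D5:**
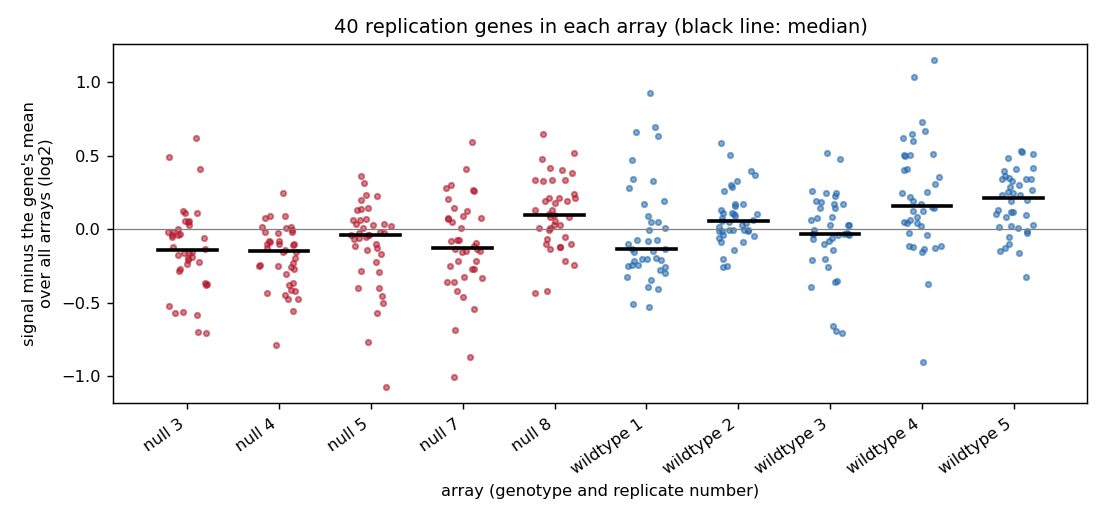
Deviation of each of 40 replication genes from its own mean over all arrays (log2, vertical axis) in each array (horizontal axis), null in red and wildtype in blue; black lines are medians. The medians run from -0.15 to 0.10 in null and from -0.13 to 0.21 in wildtype arrays, so the genotypes overlap.

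Within roles, the MCM medians were -0.24 to 0.02 in null and -0.04 to 0.18 in wildtype arrays. The RPA medians were -0.20 to 0.13 in null and -0.26 to 0.35 in wildtype arrays, and those of the clamp and loader were -0.14 to 0.19 in null and -0.13 to 0.19 in wildtype arrays. All of these ranges overlap. Markers of post-mitotic neurons, cells that have left the cycle, were over the filter for 11 of 11 genes, with 8 higher and 3 lower means in null tissue, and their summed log2 signal was 92.1 to 98.7 in null and 88.2 to 98.6 in wildtype arrays. Null replicate 8 and wildtype replicate 4 had the lowest sums of their genotypes and high replication medians. Wildtype replicate 5, with the highest replication median, had a sum of 96.1, and wildtype replicate 1, with a low one, had 96.8. Of the other markers over the filter, 4 of 6 hindbrain and 3 of 8 arch mesenchyme genes had lower means in null tissue. So had 2 of 3 endothelial, 1 of 3 erythroid and 1 of 1 heart genes, against 56.9% of all genes measured. The summed endothelial signal was 26.18 to 26.85 in null and 26.72 to 27.56 in wildtype arrays. The part of neuron content or of other cell types in the replication values was not tested.

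Further replication genes were counted from lists by function, and 0 of 59 over the filter passed the limma test, of 87 listed and 70 with a probe set. Of the 59, 35 had lower and 24 higher means, with a median log2 fold change of -0.09, and 12 stood at an unadjusted p of 0.05 (9 lower and 3 higher, 20.3% in all, against 12.8% of all genes). Without overlap between the genotypes, 3 of the 59 were lower, against 2.03% of all genes, and 1 was higher, against 50 of 5912. Wdhd1, which couples the helicase to polymerase alpha, read 7.08 to 7.35 in null and 7.47 to 8.21 in wildtype arrays without overlap (log2 fold change -0.55, SE 0.14, limma adjusted p = 0.167). Chtf8, a subunit of an alternative clamp loader, had -0.57 (SE 0.16, limma adjusted p = 0.209), and Dna2, a nuclease of lagging-strand processing, had -0.42 (SE 0.17, limma adjusted p = 0.338) on its brightest probe set and 0.45 (SE 0.17, limma adjusted p = 0.332) on the other.

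Among replication factors outside the 43, 9 had lower and 10 higher means, with a median of 0.02. Genes of chromatin assembly behind the fork had a median of -0.09 over 9 genes. There Slbp, the histone mRNA binding protein, had -0.30 (SE 0.14, limma adjusted p = 0.389), Uhrf1, a partner of the maintenance methyltransferase, 0.26 (SE 0.16) and Nasp, a histone chaperone, -0.14 (SE 0.11).

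Genes of nucleotide synthesis beyond the 43 had lower means for 9 of 12, with a median of -0.20. Dut, the dUTPase that keeps uracil out of DNA, read 9.32 to 9.59 in null and 9.64 to 9.97 in wildtype arrays without overlap. Of all genes, 2.03% were lower without overlap. The log2 fold change of Dut was -0.34 (SE 0.12, limma adjusted p = 0.302), with -0.45 on a second probe set. Samhd1, a dNTP hydrolase, had -0.51 (SE 0.22, limma adjusted p = 0.368), and Shmt2, the mitochondrial serine hydroxymethyltransferase, had -0.76 (SE 0.33) at means of 3.805 in null and 4.57 in wildtype tissue, around the filter.

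Regulators of S-phase entry had lower means for 7 of 13 genes, with a median of -0.07. E2f1, a transcription factor that drives replication genes, read 4.08 to 5.15 in null and 5.16 to 6.03 in wildtype arrays. The genotypes met without overlap, against 2.03% of all genes that were lower without overlap. The log2 fold change of E2f1 was -0.70 (SE 0.23, limma adjusted p = 0.271), and its lowest null array lay close to the filter. A second E2f1 probe set was under the filter, at means of 2.81 in null and 2.70 in wildtype tissue. Ccne1, a cyclin of S-phase entry, had -0.64 (SE 0.26, limma adjusted p = 0.342). Myb, a transcription factor of proliferating progenitors, had 0.28 (SE 0.12, limma adjusted p = 0.365) on its brightest probe set. That probe set is of a kind that may also bind related transcripts, as are the brightest ones of Nasp and Shmt2. The further Myb probe sets were under the filter, at mean log2 signals of 3.61 and 2.99 over all arrays.

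Of the histone-fold relatives of Pole3 and Pole4 and genes of related complexes, 4 had lower and 2 higher means, and 0 of 6 passed the limma test. Nfyb, a histone-fold subunit of the CCAAT-binding factor NF-Y, read 11.44 to 11.77 in null and 11.16 to 11.39 in wildtype arrays, higher without overlap (against 0.816% of probe sets), with a log2 difference of 0.30 (SE 0.11, limma adjusted p = 0.330). The second Nfyb probe set went the other way at -0.33 (SE 0.14, limma adjusted p = 0.369). Drap1, a corepressor subunit, had -0.16 (SE 0.13) and Smarca5, the remodelling ATPase of the CHRAC complex, had -0.14 (SE 0.12), with 0.22 and -0.005 on its further probe sets.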

How the data were processed

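Per the labels' protocols, biotin-labelled cRNA was made from total RNA of each microdissected tissue for Affymetrix 3' expression arrays. What the authors deposited are log2 values; the submitters' processing notes name GCRMA, and its version is not given in the sources used here. GCRMA subtracts a background modelled on probe sequence, brings arrays to 1 scale and leaves dim probe sets close to a floor, so their fold changes can come out small. Fbln1, under the filter on both of its probe sets, still had log2 fold changes of -1.88 and -1.12.

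Of 22690 probe sets, 64 controls were left out. Probe sets with a log2 value over 4 on at least 5 arrays (9801) entered limma 3.58.1 in R 4.3.3 (lmFit, eBayes), null against wildtype with genotype alone, two-sided, with Benjamini-Hochberg adjustment over all of them. Values of genes under the filter are given without a call. Gene names came from the platform annotation, and probe sets with several names were left out. All genes of the list were given a value. Fuller values, such as array values or ranges, SE, interval or adjusted p, were given for several sets of genes. These were genes past the threshold or without overlap between the genotypes, and the 10 smallest p. They also held the polymerase epsilon subunits and the smallest p of each role. In the further lists they were genes without overlap and the 3 smallest p each. Dixon's ratio was applied to single arrays. The fit was tested on simulated data. The genes and lists were chosen with earlier results of these data known. The alternatives changed the scaling, the filter, a floor, the variance trend, array weights, the replicate number, embryo sex (from a Y-linked gene), the choice of probe set, single arrays and the threshold. The actin covariate, the fit without wildtype replicates 1 and 2 and the median without Pole4 were chosen after seeing the data.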

Additional observations from a re-analysis of the deposited data

Results flagged for a closer look

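Among 80 groups of 5 arrays (40 genes in each genotype), 3 held an array that stood apart by Dixon's ratio, and chance flags about 1 in 20 groups. Cdc45 read 6.70 in null replicate 8, above 5.74 to 5.997 in the other null arrays. Gins1 read 7.77 in null replicate 5, below 8.55 to 8.80 in the other null arrays. Pole read 7.23 in wildtype replicate 5, above 6.90 to 6.97 in the other wildtype arrays.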

How the results depend on the processing

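The count of replication genes past the threshold was 1 at the settings of the report and stayed 1 in 11 of 21 distinct alternative settings, while it was 0 with a replicate block, the embryo sex covariate, averaged probe sets, the actin covariate or wildtype replicates 1 and 2 left out together, and 0 to 1 with 1 array left out (0 without null replicate 5, 7 or 8 or wildtype replicate 1, 2 or 4). The sex covariate gives the same fit as leaving out wildtype replicate 4 and is counted once with it. The count of all probe sets past it, 2, was 1 without a filter, 34 with a filter at log2 6, 8 with an intensity trend, 34 with array weights, 0 with the replicate block or the sex covariate, 46 at an adjusted p of 0.1, and 0 to 7 with 1 array left out. Pole4 kept its direction in all 21, at log2 fold changes of -1.05 to -0.45 and adjusted p of 0.00838 to 0.226. The count of other replication genes past the threshold was 0 in each setting tried for it; the actin covariate and the fit without wildtype replicates 1 and 2 were not tried for it. The median over the replication genes was -0.26 to -0.11, and 29 to 34 of 40 had lower means in the fits that measured 40. Pold1 was 0.76 with the replicate block, 0.51 without wildtype replicates 1 and 2, -0.11 with array weights, -0.15 with the sex covariate, -0.40 with the actin covariate and -0.15 to 0.25 with 1 array left out. Pole was -0.14 to 0.0069 with 1 array left out, Pole2 was 0.056 with the actin covariate, and with averaged probe sets Nfyb was -0.017, Dna2 0.012 and Smarca5 0.026. The cause of these changes was not tested. Replicate numbers 3, 4 and 5 occur in both genotypes, and deviations of same-numbered arrays correlated at -0.19, -0.34 and 0.16. Wildtype replicate 5 was the best match of null replicate 5, while null replicates 3 and 4 matched wildtype replicates 1 and 3 best. These values, with labels that give no litters, cannot settle whether the numbers pair the samples. The replicate block fit compares the genotypes through the arrays numbered 3, 4 and 5 alone, since each other number occurs in 1 genotype. In that fit the log2 fold change of Pole4 was -1.05 (limma adjusted p = 0.226) and the median over the replication genes was -0.26. Dim genes such as Pola2, Tyms and Pold2 lie near or under the filter, where signal over background limits what can be read.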
